A study of Mus musculus with 3 samples.

Results

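The genes described are the membrane transporters of sugars, monocarboxylates, organic ions and organic anions, together with the ATP-binding cassette (ABC) family, in the proximal epididymis. They were taken by gene symbol alone, from the Slc2a, Slc5a, Slc16a, Slc22a and Slco families and the Abca to Abcg subfamilies. The rule found 127 of the 24346 genes in the deposited table: 12 Slc2a, 11 Slc5a, 14 Slc16a, 25 Slc22a, 15 Slco and 50 ABC genes. The values are FPKM, read fragments scaled to transcript length and to the size of the library, so levels can be set side by side between genes.

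RNA was measured in 3 libraries, called here replicates 1, 2 and 3, from the initial segment and caput of 14-week-old mice of genotype Ovch2-/- that received no treatment. Ovch2 encodes ovochymase 2, a secreted protease made in the initial segment. The labels give this 1 group, with every library labelled as knockout and no control, so groups could not be tested against each other. The labels do not say which part of Ovch2 was deleted, which strain was used, or whether each library came from its own animal, so the spread between libraries may be technical. No gene below has a p-value. A library is called apart for a gene when its FPKM + 1 lies at least 2-fold below, or at least 2-fold above, that of both other libraries, and counts are read against the same share over all genes.

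Sperm leaving the testis mature in the epididymal duct, whose epithelium sets the composition of the fluid around them. Carrier proteins of the solute carrier (Slc and Slco) families move small solutes down a gradient or together with ions: Slc2a genes encode the glucose transporters of the GLUT family, Slc5a the sodium-coupled transporters of sugars, inositol and vitamins, Slc16a the monocarboxylate transporters, Slc22a the organic ion and carnitine transporters, and Slco the organic anion transporters. ABC proteins use ATP instead, to export lipids, conjugates and drugs or to load organelles, and the Abce and Abcf proteins act on ribosomes rather than in membranes. Carnitine, inositol and lactate are known as abundant solutes of epididymal fluid.

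The libraries did not stand alike. Ovch2 RNA stood at 4.50, 80.2 and 77.2 FPKM in replicates 1, 2 and 3, and a gene-level value does not show which exons were read, so the labelled genotype could not be checked from it in any library. The 7 principal cell markers were listed for the initial segment and caput together. Of these, replicate 1 was apart on the low side for 4, Lcn8 (8.58, 14252 and 15342 FPKM), Rnase10 (2.58, 3077 and 2708 FPKM), Cst11 (150, 7263 and 7124 FPKM) and Adam28 (0.190, 915 and 718 FPKM). Gpx5 (25918, 35882 and 32210 FPKM) and Adam7 (1461, 2691 and 2034 FPKM) had no library apart, and Lcn5 (21673, 4290 and 13581 FPKM) had replicate 2 apart on the low side. Crisp1, a gene of the more distal duct, stood at 2.07, 758 and 171 FPKM. Cd52 (296, 318 and 360 FPKM) and Lcn12 (844, 589 and 691 FPKM), listed with it, had no library apart. Both were abundant in these initial segment and caput libraries, and whether either marks distal tissue was not tested. The haemoglobin gene Hba-a1 stood at 8.46, 31.5 and 119 FPKM, while the other blood markers listed were at most 0.0376 FPKM in any library. Replicates 2 and 3 thus also differed from each other, for Crisp1, Lcn5 and Hba-a1. The 6 germ cell markers summed to 0.301, 161 and 220 FPKM, with 5 of them at 0 in replicate 1. The 5 genes listed for clear and narrow cells summed to 173, 116 and 118 FPKM. Sums for the 4 endothelial markers were 10.6, 26.4 and 15.7 FPKM, for the 4 macrophage markers 32.6, 39.2 and 36.0 FPKM, for the 4 basal cell markers 166, 129 and 135 FPKM, and for the 5 smooth muscle and stroma markers 555, 413 and 384 FPKM. Genes of a list did not all follow its sum. Of the basal cell markers, Krt5 and Krt14 were highest in replicate 1 and Trp63 and Itga6 lowest. Itga6 had replicate 1 apart on the low side (4.48, 11.6 and 10.2 FPKM). Of the genes listed for clear and narrow cells, 3 had replicate 1 apart on the high side, while Car2 and Aqp9 were lowest there. Aqp9, which is not particular to these cells, stood at 28.2, 47.2 and 47.1 FPKM within that sum. The 3 hepatocyte markers, which the tissue should lack, summed to at most 0.882 FPKM. The part of these differences in any transporter value was not tested. The libraries span the initial segment and the caput. In such whole tissue, fewer cells of a type, less RNA per cell and another share of each region cannot be told apart.

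Of the 127 transporter genes, 58 had a mean of at least 1 FPKM (45.7%, against 53.7% of all genes), 28 had at least 10 FPKM and 16 were listed at 0 in every library. The other 69 genes under 1 FPKM were mainly Slc22a (20 of 25), Slco (9 of 15), Slc5a (8 of 11) and ABC genes (23 of 50). All 127 together summed to 936 ± 34.9 FPKM (SD, n = 3). Abca2 was the most abundant at 134 ± 46.1 FPKM, followed by Slc16a11 (74.3 ± 16.9 FPKM) and Slc16a10 (74.0 ± 30.5 FPKM). Below these the order was loose: of the 27 neighbouring pairs among the 28 genes of at least 10 FPKM, 25 had overlapping ranges over the libraries. The pairs that did not overlap were Abca2 over Slc16a11, and Slc16a10 over Abcd3.

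**Figure D1:**
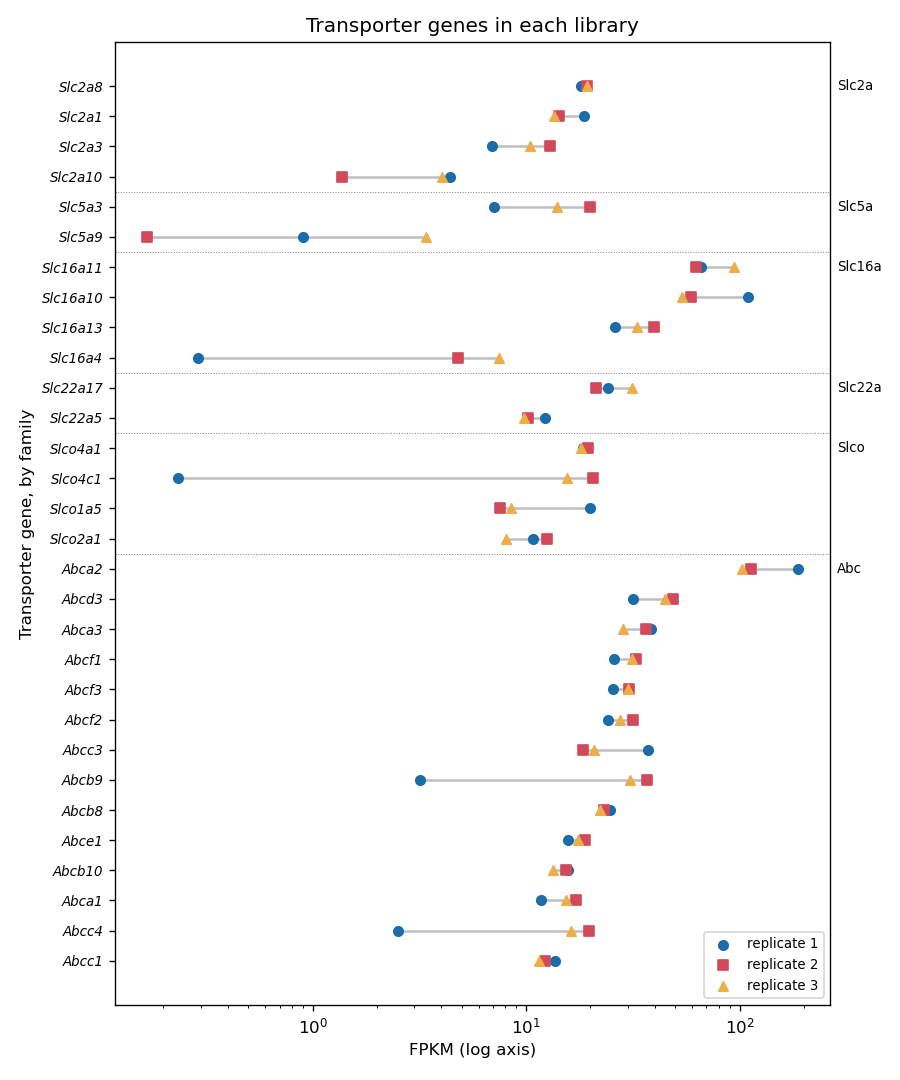
FPKM on a log axis of 30 of the 31 transporter genes chosen by level or by the spread between libraries, in 6 families; each marker is 1 library and the grey line joins the lowest and highest. Slco4c1, Abcb9, Abcc4 and Slc16a4 have replicate 1 far to the left of the other libraries, while Slc2a8, Slco4a1 and Abcb8 have all 3 markers together.

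Most transporter genes kept a similar level in the 3 libraries, and a few did not. Of the 58 genes of at least 1 FPKM, 11 varied at least 2-fold between the highest and the lowest library (19.0%, against 10.8% of all 13073 genes passing the same filter). Replicate 1 was apart on the low side for Slco4c1, Abcb9, Abcc4 and Slc16a4, 4 of 58 or 6.90%, where 4.07% of all genes did so. It was apart on the high side for 2 of 58 genes, Slco1a5 among them, or 3.45%, against 1.29%. Replicate 2 was below both others for Slc2a10 alone (1 of 58, against 0.757%) and above both for 0 genes (against 0.237%). Replicate 3 was above both others for Slc5a9 alone (1 of 58, against 0.314%) and below both for 0 genes (against 0.153%). These counts are small, and no test sets them apart from the background.

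Without the 2-fold limit, replicate 1 was the lowest library for 28 of the 58 genes (48.3%, background 41.2%) and the highest for 22 (37.9%, background 38.2%). Replicate 2 was lowest for 14 (24.1%, background 33.4%) and highest for 27 (46.6%, background 34.4%). Replicate 3 was lowest for 16 (27.6%, background 25.3%) and highest for 9 (15.5%, background 27.3%). The median deviation of the 58 genes from their own 3-library mean was -0.05, 0.07 and 0.00 on the log2(FPKM + 1) scale, where that of all genes of at least 1 FPKM was -0.01, 0.00 and 0.01. These are medians of signed deviations, so genes above and below their own mean offset each other. They do not give how far a single gene lay from its mean, and some genes lay far from theirs.

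**Figure D2:**
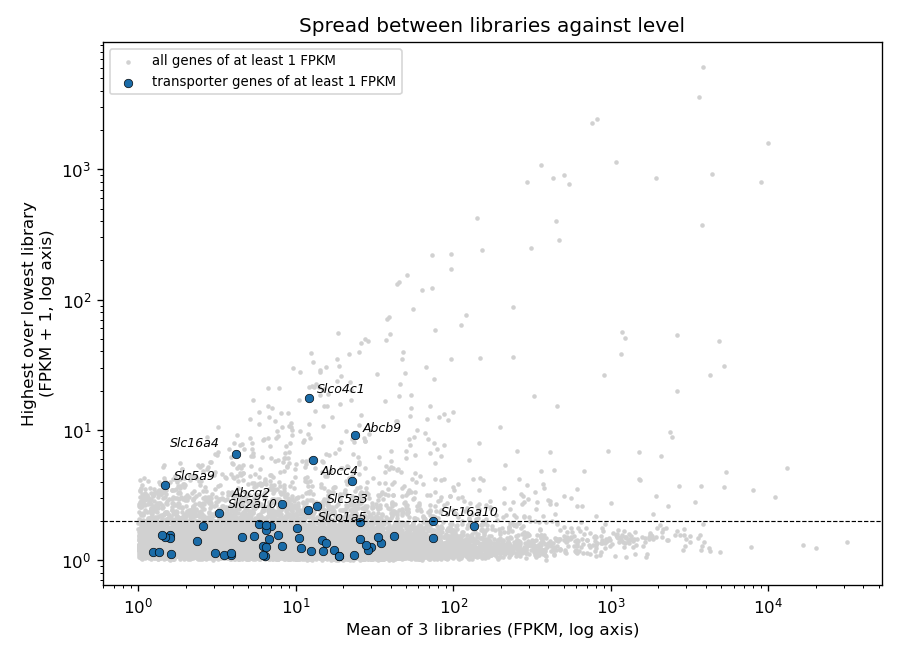
Highest over lowest library on the FPKM + 1 scale (log axis) against the mean FPKM of the 3 libraries (log axis), for the 58 transporter genes of at least 1 FPKM in blue and all 13073 such genes in grey. The dashed line marks 2-fold; 11 transporter genes are on or above it and 10 of these are named, with Slco4c1 the highest at 17.5-fold.

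The sequences before the transcription start are shown for the 4 genes that were low in replicate 1, and for Slco1a5, which was high there, so that their starts can be compared. Each is the 250 bases upstream of a RefSeq start in GRCm38.p6, read 5′ to 3′ on the gene's strand; RefSeq gave a second start for Abcc4 and for Slco1a5, and the first is shown. Capitals mark matches on either strand to 3 motifs: CCGGAA, the core of sites bound by ETS factors, TGTTCT, the repeat unit of androgen receptor sites, and CACGTG, the E-box. No searched motif overlapped another in these windows.
Slco4c1 (chr1:96872172-96872421, minus strand): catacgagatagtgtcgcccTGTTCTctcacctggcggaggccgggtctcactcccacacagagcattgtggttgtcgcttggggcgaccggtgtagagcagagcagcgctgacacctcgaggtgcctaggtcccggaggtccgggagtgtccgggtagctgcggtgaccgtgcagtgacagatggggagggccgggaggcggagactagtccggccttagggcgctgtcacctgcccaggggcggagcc
Slc16a4 (chr3:107290980-107291229, plus strand): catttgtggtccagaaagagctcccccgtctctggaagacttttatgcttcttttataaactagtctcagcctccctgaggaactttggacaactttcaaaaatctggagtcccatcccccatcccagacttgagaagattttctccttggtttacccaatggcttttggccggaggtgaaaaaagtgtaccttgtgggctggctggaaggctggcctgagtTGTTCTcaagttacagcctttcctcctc
Abcb9 (chr5:124095799-124096048, minus strand): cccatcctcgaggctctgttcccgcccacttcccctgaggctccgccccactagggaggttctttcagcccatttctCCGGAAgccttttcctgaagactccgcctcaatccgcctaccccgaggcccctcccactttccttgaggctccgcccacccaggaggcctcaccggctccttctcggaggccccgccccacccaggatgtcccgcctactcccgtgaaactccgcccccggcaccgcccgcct
Abcc4 (chr14:118706220-118706469, minus strand): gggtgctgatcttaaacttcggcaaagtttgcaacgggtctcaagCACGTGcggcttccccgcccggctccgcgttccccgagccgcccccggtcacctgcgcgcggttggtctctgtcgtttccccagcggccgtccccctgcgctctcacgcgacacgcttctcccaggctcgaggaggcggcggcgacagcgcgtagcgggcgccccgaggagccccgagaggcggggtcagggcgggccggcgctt
Slco1a5 (chr6:142322982-142323231, minus strand): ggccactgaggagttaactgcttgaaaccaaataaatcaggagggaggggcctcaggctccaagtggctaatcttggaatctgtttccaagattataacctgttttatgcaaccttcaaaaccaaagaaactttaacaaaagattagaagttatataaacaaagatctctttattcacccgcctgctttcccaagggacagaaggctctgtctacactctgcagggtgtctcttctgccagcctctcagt

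No motif was present in the shown windows of all 4 genes that were low in replicate 1. TGTTCT stood in the windows of Slco4c1 (from -230 to -225, counted back from the start) and Slc16a4 (-28 to -23), CCGGAA in that of Abcb9 (-173 to -168) and CACGTG in that of Abcc4 (-205 to -200). The second start of Abcc4, not printed, had TGTTCT (-123 to -118) and no other match. Neither Slco1a5 window held any of the 3. RefSeq promoters were found for 100 of the 127 genes, with 114 starts. CCGGAA was present in 15 of these 114 windows (13.2%, against 12.0% of all 32851), TGTTCT in 20 (17.5%, against 16.1%) and CACGTG in 10 (8.77%, against 6.02%). In the 55 windows of transporter genes of at least 1 FPKM, the shares were 20.0% for CCGGAA (11 windows), 16.4% for TGTTCT (9) and 9.09% for CACGTG (5). A match is a description of letters, not a binding site, and the shares were not tested. The windows also differed in base composition, from 43.6% G and C in Slco1a5 to 72.0% in the shown window of Abcc4, with a median of 52.4% over all promoters.

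Glucose transporters of the GLUT family were led by Slc2a8, whose protein resides mainly in intracellular membranes, at 18.0, 19.2 and 19.3 FPKM. Slc2a1, the widely expressed basal glucose transporter, stood at 18.6, 14.3 and 13.5 FPKM. Slc2a3, a high-affinity glucose transporter, stood at 6.93, 12.9 and 10.4 FPKM. These genes kept within 2-fold over the libraries, with Slc2a8 the steadiest of them (18.9 ± 0.720 FPKM, SD, n = 3). A further 3 genes had nearly the same mean: Slc2a4, the insulin-responsive transporter (6.51 ± 2.26 FPKM), Slc2a5, the fructose transporter (6.45 ± 0.858 FPKM), and Slc2a9, a urate transporter (6.45 ± 2.23 FPKM). Slc2a4 was highest in replicate 1 at 9.10 FPKM and Slc2a9 lowest there at 4.27 FPKM. Slc2a10, a GLUT family member known from arterial wall disease, was the gene lowest in replicate 2: it stood at 4.41, 1.37 and 4.03 FPKM, so that replicates 1 and 3 were 2.28 and 2.12 times replicate 2 on the FPKM + 1 scale. After each library was rescaled to the same total, replicate 2 was no longer apart for it. The remaining 5 genes were under 1 FPKM, among them Slc2a2, the low-affinity transporter of liver and pancreatic islets (0.425 FPKM), and Slc2a7, which was listed at 0 in all libraries.

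Among the sodium-coupled transporters only 3 of 11 genes had at least 1 FPKM. Slc5a3, which takes up myo-inositol with sodium, stood at 7.08, 20.0 and 13.9 FPKM, and it held 64.9% of the family's mean FPKM. Replicate 2 was 2.60 times and replicate 3 was 1.85 times replicate 1 on the FPKM + 1 scale, so replicate 1 was the lowest but fell short of 2-fold below both. GENCODE places 159 exon bases of Slc5a3 in the mitochondrial ribosomal gene Mrps6 on the same strand, and reads there cannot be assigned to either. Slc5a6, the transporter of biotin and pantothenate, stood at 7.09, 4.73 and 4.32 FPKM. Slc5a9, a sodium-coupled sugar transporter, stood at 0.905, 0.168 and 3.39 FPKM; it passed the filter on account of replicate 3, which was 2.30 and 3.75 times the other libraries on the FPKM + 1 scale. The intestinal and renal glucose transporter genes were near absent: Slc5a1 had a mean of 0.0206 FPKM, and Slc5a2 was listed at 0 in all libraries, as were Slc5a7, Slc5a11 and Slc5a12. Slc5a5, the iodide transporter of the thyroid, stood at 0.284 FPKM, and Slc5a8, a sodium-coupled monocarboxylate transporter, at 0.0751 FPKM.

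The monocarboxylate transporter family had 10 of 14 genes at 1 FPKM or more and the largest summed level of the Slc families, 266, 193 and 222 FPKM. Its abundant members were not the well-described lactate transporter genes Slc16a1, Slc16a3, Slc16a7 and Slc16a8. Slc16a11 stood at 66.3, 62.8 and 93.8 FPKM, and Slc16a13, which lies next to it on mm10 chromosome 11 (70213695 to 70216414 and 70216789 to 70222740), at 26.1, 39.9 and 33.0 FPKM. Slc16a10, which carries aromatic amino acids and thyroid hormone, stood at 109, 59.1 and 53.8 FPKM, with replicate 1 highest. Those lactate transporter genes were lower. Slc16a3 stood at 9.99, 5.04 and 5.77 FPKM and Slc16a1 at 8.65, 5.91 and 5.67 FPKM. Slc16a7 and Slc16a8 had means of 0.369 and 0.127 FPKM. Both Slc16a1 and Slc16a3 were highest in replicate 1, by less than 2-fold, where 38.2% of all genes were highest.

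Slc16a4 was near absent from replicate 1. Slc16a4, a family member without a settled substrate (mm10 chromosome 3, 107291230 to 107312115), stood at 0.290, 4.80 and 7.43 FPKM, so that replicates 2 and 3 were 4.49 and 6.53 times replicate 1 on the FPKM + 1 scale. Its mean was 4.17 FPKM with all libraries and 6.11 FPKM without replicate 1. Slc16a6, Slc16a9 and Slc16a12 stayed between 1.10 and 2.10 FPKM in every library, and Slc16a5 and Slc16a14 were under 1 FPKM.

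Organic cation and anion transporters of the Slc22a family were mostly low, with 20 of 25 genes under 1 FPKM, 8 of these listed at 0 in all libraries, and 5 at 1 FPKM or more. Slc22a17, reported as a receptor for lipocalin 2, was the most abundant at 24.3, 21.2 and 31.4 FPKM. Slc22a5, the carnitine transporter OCTN2, stood at 12.3, 10.3 and 9.80 FPKM. Both stayed within 2-fold across libraries, and Slc22a5 was steady at 10.8 ± 1.32 FPKM (SD, n = 3). Its chromosome 11 neighbours of the same subfamily were far lower, at 0.934 FPKM for Slc22a21 and 0.404 FPKM for Slc22a4, the ergothioneine transporter. Slc22a18, an imprinted gene, had 6.19 ± 0.879 FPKM, Slc22a23 1.47 ± 0.496 FPKM, and Slc22a3, the extraneuronal monoamine transporter, 1.42 ± 0.575 FPKM.

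The kidney and liver members of Slc22a were at the lowest levels. Slc22a6, the renal organic anion transporter OAT1, was listed at 0 in all libraries, and Slc22a8, OAT3, had 0.0648 FPKM. The 10 Slc22a genes on chromosome 19 had means between 0 and 0.0949 FPKM. Slc22a2, an organic cation transporter of the kidney, had 0.0110 FPKM. Slc22a16, a carnitine transporter known from human testis and epididymis, stood at 0, 0.268 and 0.394 FPKM, listed at 0 in the library that also lacked germ cell transcripts; the part of germ cells in this value was not tested. Values this low rest on few reads, and near-identical copies on chromosome 19 can share them.

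Organic anion transporter genes gave the widest contrast. Slco4a1, a broadly expressed transporter of thyroid hormone and other anions, was the highest and was steady at 18.5, 19.6 and 18.2 FPKM. Slco4c1, a transporter described in the kidney (mm10 chromosome 1, 96816270 to 96872193), stood at 0.234, 20.6 and 15.5 FPKM. Replicates 2 and 3 were 17.5 and 13.4 times replicate 1 on the FPKM + 1 scale, the widest range of any transporter gene here. Its mean was 12.1 ± 10.6 FPKM with all libraries (SD, n = 3) and 18.1 FPKM without replicate 1. In replicates 2 and 3 it thus stood beside Slco4a1, and in replicate 1 it was close to 0. Slco1a5, an organic anion transporter gene of chromosome 6 (142234227 to 142322981), was the reverse, at 19.9, 7.57 and 8.52 FPKM, 2.44 and 2.20 times higher in replicate 1 on the FPKM + 1 scale. The Iapp gene lies within its span and was also highest in replicate 1, at 13.2, 2.26 and 5.92 FPKM. GENCODE annotates no exon overlap between them.

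Of the Slco6 genes near Slco4c1, Slco6b1 also had replicate 1 at least 2-fold below both others, but at under 1 FPKM on average. Slco6b1 and Slco6c1, whose rat counterparts are testis transporters, follow Slco4c1 on chromosome 1 (96906176 to 96997560 and 97059038 to 97128339), and Slco6d1 lies farther along (98421087 to 98516985). Slco6b1 was listed at 0 in replicate 1 and stood at 1.41 and 1.14 FPKM in the others. Slco6c1 was listed at 0, 0.175 and 0.0400 FPKM, and Slco6d1 at 0, 0.0392 and 0 FPKM. Slco6c1 and Slco6d1 had no library apart, nor did Panct2, whose span overlaps that of Slco4c1 (1.05, 2.62 and 2.28 FPKM). The Slco6 genes were named after their values were seen and, being below 1 FPKM on average, are not among the 58 genes whose libraries were compared. In the chromosome 6 group, Slco1c1, the thyroxine transporter of brain vessels, stood at 0.0430, 1.10 and 0.989 FPKM, Slco1a4 stayed between 0.731 and 0.935 FPKM, and the liver genes Slco1a1 and Slco1b2 were listed at 0 throughout. Slco1c1 was lowest in replicate 1, where Slco1a5 was highest, but Slco1c1 had no library apart and was under 1 FPKM on average. Members of the Slco1a group are close copies, and read assignment between them is uncertain.

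**Figure D3:**
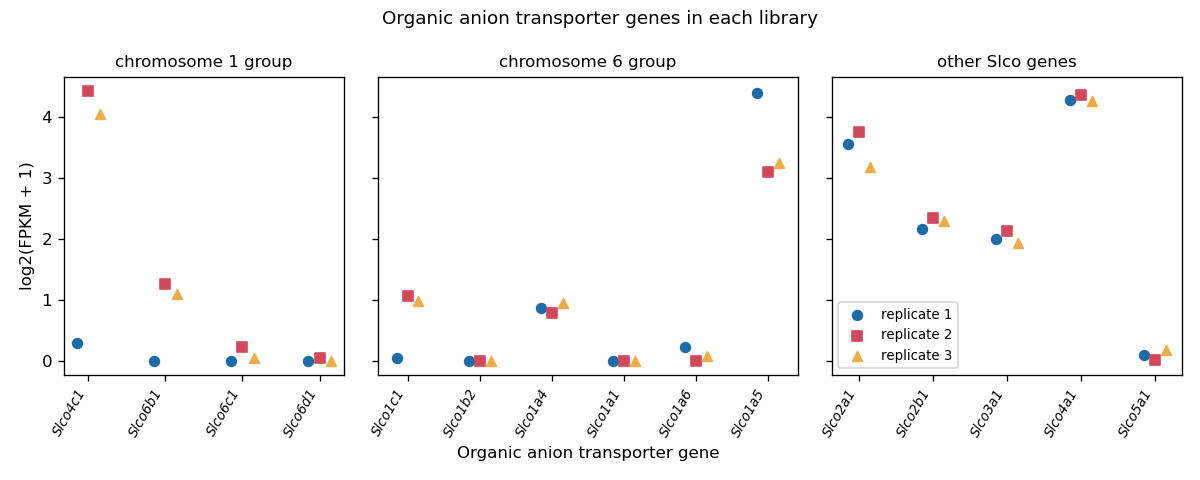
log2(FPKM + 1) of the 15 organic anion transporter genes in each library, split into the chromosome 1 group, the chromosome 6 group and the others. Slco4c1 and Slco6b1 have replicate 1 at or near 0, Slco1a5 has replicate 1 on top, and Slco4a1, Slco2b1 and Slco3a1 have the 3 libraries together.

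Of the remaining organic anion transporters, Slco2a1, the prostaglandin transporter, stood at 10.8, 12.5 and 8.10 FPKM. Slco2b1 had 3.85 ± 0.312 FPKM and Slco3a1 3.07 ± 0.278 FPKM (SD, n = 3). These 3 genes showed no library apart. Slco5a1 had 0.0782 FPKM.

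Lipid transporters of the Abca subfamily were carried by few genes. Abca2, a lipid transporter of endosomes and lysosomes best known from myelin-forming cells, stood at 187, 113 and 102 FPKM and made up 70.0% of the subfamily's mean FPKM. Abca3, which loads surfactant lipid into the lamellar bodies of lung cells, stood at 38.7, 36.5 and 28.5 FPKM. Abca1, which exports cholesterol to apolipoproteins, stood at 11.8, 17.1 and 15.4 FPKM. All stayed within 2-fold across libraries, Abca2 being highest in replicate 1 and Abca1 lowest there. Abca5 had 4.53 ± 1.18 FPKM and Abca7 1.58 ± 0.604 FPKM. The other 11 Abca genes were under 1 FPKM, including the retinal gene Abca4 (0.0632 FPKM) and the skin gene Abca12, listed at 0.

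In the Abcb subfamily, replicate 1 was apart for a lysosomal gene, Abcb9. Abcb9, which carries peptides into lysosomes (mm10 chromosome 5, 124061857 to 124095955), stood at 3.18, 37.0 and 30.6 FPKM. Replicates 2 and 3 were 9.10 and 7.57 times replicate 1 on the FPKM + 1 scale, and the mean was 33.8 FPKM without replicate 1. A noncoding gene on the opposite strand, Gm34086, shares 162 exon bases with it. The mitochondrial genes Abcb8 (23.4 ± 1.19 FPKM) and Abcb10 (14.8 ± 1.30 FPKM, SD, n = 3) differed little between libraries, and Abcb6, a porphyrin transporter, had 10.2, 6.22 and 6.53 FPKM. Abcb1a, the drug efflux pump P-glycoprotein, stood at 1.78, 2.92 and 2.41 FPKM. The summed endothelial and macrophage markers given above had this library order, as did other transporter genes such as Abcd3 and Abca1. The part of any cell type in the Abcb1a value was not tested. The copy of Abcb1a, Abcb1b, had 0.270 FPKM. The bile canalicular genes Abcb4 and Abcb11 had 0.0754 and 0.00453 FPKM.

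The multidrug resistance proteins of the Abcc subfamily differed in pattern from each other. Abcc4, which exports cyclic nucleotides and prostaglandins (mm10 chromosome 14, 118482692 to 118707856), stood at 2.53, 19.7 and 16.2 FPKM, with replicates 2 and 3 at 5.87 and 4.88 times replicate 1 on the FPKM + 1 scale. Its mean was 12.8 FPKM, and 17.9 FPKM without replicate 1. Abcc3, an exporter of glucuronides and bile acids, was highest in replicate 1 at 37.3 FPKM, against 18.5 and 20.8 FPKM, which is 1.97 and 1.76 times on the FPKM + 1 scale and so just inside 2-fold. Abcc4 and Abcc3 therefore ranked in opposite order between replicate 1 and the others. Abcc1, an exporter of glutathione conjugates, was steady at 12.5 ± 1.11 FPKM, as were Abcc5 (8.22 ± 1.13 FPKM), an exporter of cyclic nucleotides, and Abcc10 (6.39 ± 0.267 FPKM, SD, n = 3). Abcc9, a regulatory subunit of potassium channels, had 1.24 ± 0.198 FPKM. Abcc2, the apical conjugate exporter of liver, had 0.0505 FPKM.

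The 2 Abcg genes of at least 1 FPKM, Abcg2 and Abcg1, were lowest in replicate 1 but were not counted as apart. Abcg2, the breast cancer resistance protein, stood at 3.91, 12.3 and 8.27 FPKM, so that replicate 2 was 2.71 times and replicate 3 was 1.89 times replicate 1 on the FPKM + 1 scale. With a pseudocount of 0.1 FPKM it joined the genes for which replicate 1 was apart on the low side. Abcg1, which exports cholesterol to lipoproteins, stood at 3.43, 6.85 and 7.31 FPKM. The sterol pair Abcg5 and Abcg8 had 0.307 and 0.120 FPKM and were not lowest in replicate 1. The cholesterol exporters Abca1 and Abcg1 were thus both lowest in replicate 1, each by less than 2-fold on the FPKM + 1 scale. Of all genes, 41.2% were lowest there.

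Peroxisomal and ribosomal ABC genes varied little. Abcd3, which imports fatty acids into peroxisomes, stood at 31.8, 48.8 and 44.9 FPKM. Abcd4, which acts in lysosomal cobalamin export, had 3.86 ± 0.238 FPKM. Abcf1, Abcf2 and Abcf3, which act in translation, had 29.9 ± 3.64, 27.8 ± 3.73 and 28.8 ± 2.75 FPKM, and Abce1, the ribosome recycling factor, 17.4 ± 1.55 FPKM (SD, n = 3). All 4 of these translation genes were lowest in replicate 1 by less than 2-fold, where 41.2% of all genes were lowest. So short a list was not tested.

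**Figure D4:**
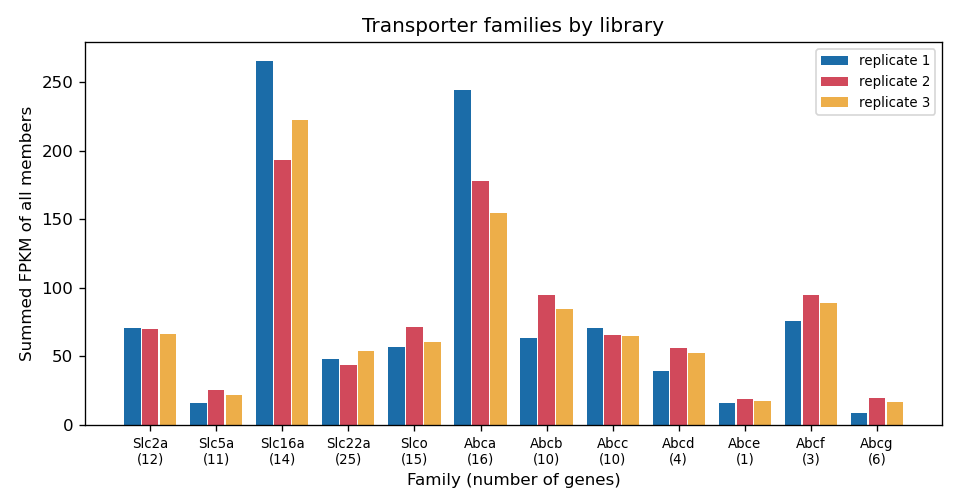
Summed FPKM of all members of each Slc, Slco and ABC family in each library, with the number of genes in brackets. Slc16a and Abca have the tallest bars, both highest in replicate 1, and Abcg is lowest in replicate 1 at 8.47 FPKM against 19.8 and 16.8 FPKM.

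Summed over families, Slc16a (227 ± 36.5 FPKM) and Abca (192 ± 46.6 FPKM) were followed by Abcf (86.4 ± 9.87 FPKM), Abcb (80.9 ± 16.2 FPKM), Slc2a (68.9 ± 2.09 FPKM), Abcc (67.0 ± 3.36 FPKM) and Slco (62.9 ± 7.38 FPKM, SD, n = 3 each). Slc2a and Abcc sums were nearly equal between libraries. Within Abcc, Abcc3 and Abcc4 differed in opposite directions, and so did Slco1a5 and Slco4c1 within Slco.

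Genes that act with the transporters were read from lists made by function. Against their counts stand the shares of all genes for which replicate 1 was apart, 4.07% on the low side and 1.29% on the high side, and lists this short were not tested. In the lactate and monocarboxylate list, replicate 1 was apart on the low side for 2 of the 10 genes that passed the filter. Emb, which encodes embigin, an escort protein of monocarboxylate transporters, stood at 3.25, 55.5 and 75.9 FPKM, and Ldhc, the germ cell lactate dehydrogenase, at 0, 8.15 and 4.46 FPKM. Bsg, which encodes basigin, the main escort protein of Slc16a1 and Slc16a3, stood at 276, 337 and 361 FPKM. Bsg, Emb and Slc16a4 thus had the same order of libraries, but Bsg had no library apart. Slc16a1 and Slc16a3 did not share that order, being highest in replicate 1, where Bsg was lowest. The lactate dehydrogenase genes Ldha (169, 96.1 and 100 FPKM) and Ldhb (320, 166 and 198 FPKM) were highest in replicate 1, as were 11 of the 13 glycolysis genes (against 38.2% of all genes), 0 of which lay 2-fold apart in any library.

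Of the 8 sorbitol, fructose and inositol genes of at least 1 FPKM, 1 lay apart. Impa2, an inositol monophosphatase gene, stood at 1.19, 30.0 and 36.2 FPKM, whereas Impa1, of the same activity, stood at 18.7, 21.5 and 19.1 FPKM. Isyna1, which makes inositol phosphate from glucose phosphate, was abundant at 645, 558 and 596 FPKM. Impa1, Impa2 and the transporter gene Slc5a3 were thus lowest in replicate 1, and Isyna1 was highest there. Of all genes, 41.2% were lowest and 38.2% highest in replicate 1. Among these genes only Impa2 had replicate 1 apart, and Impa1 and Isyna1 differed little between libraries. Sord, the sorbitol dehydrogenase gene, stood at 17.2, 18.4 and 16.5 FPKM.

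In the carnitine list, 1 of 7 genes of at least 1 FPKM had replicate 1 apart on the low side (against 4.07% of all genes): Cpt1a, which links fatty acids to carnitine, stood at 33.1, 82.7 and 69.3 FPKM. Slc25a20, the mitochondrial carnitine carrier gene, stood at 17.6, 29.0 and 24.7 FPKM, and Cpt2 at 14.9, 13.7 and 13.9 FPKM. Bbox1, the last enzyme of carnitine synthesis, was near 1 FPKM in each library (1.22, 0.659 and 0.943 FPKM). Slc22a5, the carnitine importer gene, did not follow Cpt1a, being highest in replicate 1.

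**Figure D5:**
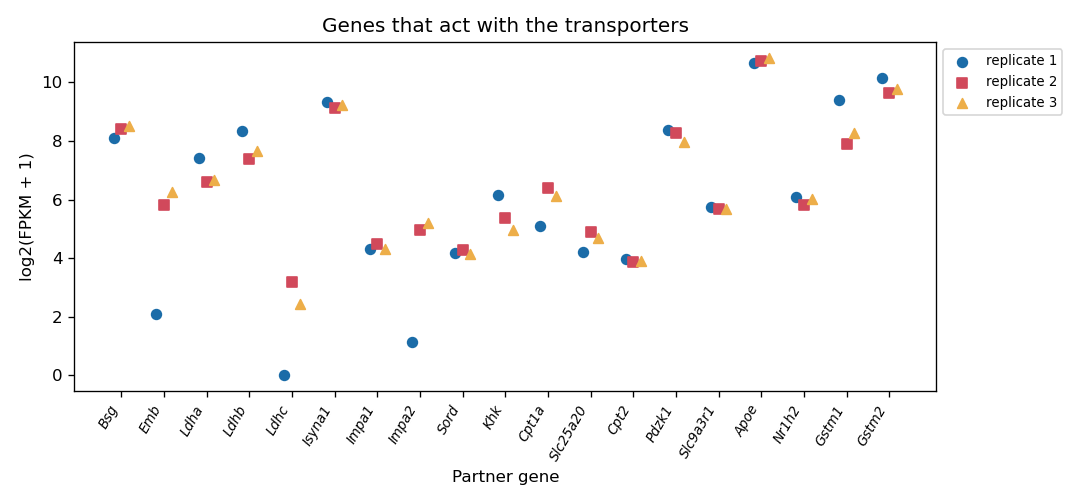
log2(FPKM + 1) of 19 genes that act with the transporters, in each library. Emb, Ldhc and Impa2 have replicate 1 far below the others, while Bsg, Isyna1, Sord, Cpt2 and Apoe have the 3 libraries close together.

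In the other lists, 0 of 8 cholesterol efflux genes, 0 of 4 PDZ scaffold genes and 0 of 5 regulators of at least 1 FPKM lay apart. Apoe, which accepts exported cholesterol, stood at 1627, 1676 and 1804 FPKM, whereas Apoa1 was under 0.66 FPKM in every library. Pdzk1, a scaffold that anchors several Slc22a and Slco proteins at the apical membrane, stood at 334, 311 and 248 FPKM. The nuclear receptor genes Nr1i2 and Nr1i3, which control drug transporters in liver, were listed at 0 throughout. Of 10 conjugation genes, Gstm1, a glutathione transferase gene, had replicate 1 apart on the high side, at 675, 239 and 311 FPKM. Of 5 sodium gradient genes, Fxyd3, a regulator of the sodium pump, had replicate 1 apart on the low side, at 56.3, 162 and 131 FPKM.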

How the data were processed

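RNA was measured in 3 libraries of 1 labelled group, made with a stranded TruSeq mRNA kit per the labels' protocols. The authors deposited 1 table of FPKM values, which its header calls normalized. TopHat2 2.1.1, Cufflinks 2.2.1 and build mm10 are named in the submitters' processing notes, while the annotation, strand setting, filters and scaling are not given. Zeros may be failed estimates and are called listed at 0. Absolute depth is unknown; the most common ratio between values under 0.5 FPKM gave replicate 1 a depth 1.22 times replicate 2's and 1.40 times replicate 3's, so low values are least precise in replicate 3 and no counting interval was possible.

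FPKM is not a count, so no count model was used, and with 1 group no test was made. Genes were compared between libraries on the log2(FPKM + 1) scale, which understates folds of low genes, with a filter of a mean of at least 1 FPKM. The functions were tested on simulated data. Identifiers of all 127 transporter genes matched RefSeq GRCm38.p6, which has mm10 coordinates. Of 31 genes named by rule (at least 10 FPKM, a library apart, or the family's highest mean), 5 share exon bases with a gene on the opposite strand and 1 on the same strand in GENCODE M21: without the strand setting such reads cannot be told apart. Some of the transporter and partner genes are not reported here by name. Further genes were named for their role after their values were seen. The transporter genes, the lists and the motifs were chosen with earlier results of these data known. Alternatives were leaving out each library, 2 other scalings, a pseudocount of 0.1 FPKM, other filters and a 4-fold limit. Python 3.11.15, numpy 2.4.6 and pandas 2.3.3 were used.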

Additional observations from a re-analysis of the deposited data

How the results depend on the processing

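Of the 31 named genes, 4 had a mean that moved by over 1.5 times when 1 library was left out, among them Slco4c1 (12.1 to 7.88 FPKM without replicate 2), Slc16a4 (4.17 to 2.54 FPKM without replicate 3) and Slc5a9 (1.49 to 0.537 FPKM without replicate 3). The other scalings, median-of-ratios and rescaling to the same total, shifted the median of all genes by at most 0.09 (log2, either direction). Slco4c1, Abcb9, Abcc4 and Slc16a4 kept replicate 1 apart on the low side under both scalings, with a pseudocount of 0.1 FPKM and at 4-fold. At a mean of at least 5 FPKM, Slc16a4 was no longer tested. With a mean of at least 0.5 FPKM, Slco6b1 joined them, and with a pseudocount of 0.1 FPKM, Abcg2 did. Slco1a5 stayed 2-fold above in replicate 1 except at 4-fold, where the count was 0. The single calls were less stable: Slc2a10 in replicate 2 was lost (0 genes) by rescaling to the same total, at 5 FPKM and at 4-fold, and became 2 genes with a pseudocount of 0.1 FPKM, and Slc5a9 in replicate 3 was lost (0 genes) at 5 FPKM and at 4-fold. The cause was not tested.

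Leaving out a library leaves a comparison of 1 library with 1, so each gene below in 1 library is above in the other. This gave 5 to 6 genes below and 3 above in replicate 1. In replicate 2 there were 2 to 3 below and 0 to 6 above, and in replicate 3 there were 0 to 3 below and 2 to 5 above. The genes lowest in replicate 2 then numbered 20 to 25 and highest 32 to 41, and in replicate 3 lowest 27 to 41 and highest 20 to 32. Without the filter, all 127 genes were kept, with 47, 32 and 26 lowest and 38, 48 and 25 highest in replicates 1, 2 and 3. At a mean of at least 5 FPKM, 18 and 9 were lowest in replicates 1 and 2 and 16 highest in replicate 2, since fewer genes were tested. Rescaling to the same total left 4 genes highest in replicate 3 and moved the median deviation there to -0.09, the shift of all genes there being -0.09. Without the filter that in replicate 2 was 0.00. Family medians lay between -0.17 and 0.13 and, over the alternatives, between -0.44 and 0.44; 38 of 144 moved by over 1 SD. Absolute depth is unknown, so differences between genes under 1 FPKM were not judged. No paired analysis was possible because there is 1 group.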

Other observations

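Genes within 250 kb of transporters that lay apart in replicate 1 were read, a choice made after seeing the values. Near Abcb9, 2 of 10 genes of at least 1 FPKM also had replicate 1 apart on the low side, against 4.07% of all genes: Hip1r, an endocytic adaptor gene, stood at 39.5, 139 and 123 FPKM, and Vps37b, an endosomal sorting gene, at 15.4, 51.2 and 49.2 FPKM. The nearest of the 10, Ogfod2, did not share this, at 29.6, 27.3 and 29.7 FPKM. Near Abcc4, 1 of 3 genes did so: Cldn10, a claudin gene of paracellular ion pores, stood at 9.22, 92.5 and 95.0 FPKM, 80014 bases away. Near Slc16a4, 0 of 4 genes lay 2-fold below in replicate 1, and near Slco4c1 0 of 1. Near Slco1a5, 1 of 6 genes lay above, Iapp, against 1.29% of all genes. No test was made of these neighbourhoods.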
